A study of Mus musculus with 4 samples.

Results

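Otx2, Pou3f1, Foxd3, Grhl2, Sall2, Lin28b, Cdh2 and Igfbp3 are 8 genes tied to the formative and primed states of the epiblast. They were chosen by name, with earlier results of these data known, as the rows of the deposited expression table that carry these symbols. All 8 were found among the 14382 genes of the table, and all 8 were among the 14376 genes tested. RNA was sequenced from mouse embryonic stem cells (ESCs) whose Arid1a alleles are floxed and which express CreERT2, a form of Cre recombinase held outside the nucleus until it binds 4-hydroxytamoxifen (4-OHT). ARID1A is a DNA-binding subunit of BAF, a complex that remodels chromatin, and the study compared its knockout with control cells. The control group received ethanol and the knockout group received 1 µM 4-OHT, both for 24 hours, and RNA was taken 72 hours after treatment, with 2 libraries in each group.

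Both groups had the Arid1a f/f:CreERT2 genotype and were kept on a layer of irradiated embryonic fibroblasts, in medium with serum, a serum replacement and the cytokine LIF. No group used here received 4-OHT without floxed alleles, so effects of 4-OHT, of active Cre and of the deletion cannot be told apart. The promoter that drives CreERT2, and whether the line is 1 clone, were not given in the sources used here. Nothing in the labels says that the libraries of a group came from separate cultures, so p-values measure only the spread between these libraries, which may be technical. The table gave group means without replicate numbers, from which reads per library were recovered, so the pair of libraries in each group is named A and B. Levels are CPM, reads scaled to the effective size of the library. Recovered totals ranged from 6188378 to 7012664 reads, and 1 read was worth between 0.142 and 0.159 CPM. Arid1a fell from 517 and 502 CPM in ethanol to 241 and 213 CPM with 4-OHT (limma log2 fold change -1.16, SE 0.066, adjusted p = 7.27e-06), counted over the whole gene and not over the floxed part alone. Pou5f1, the defining ESC factor, averaged 1442 ± 79.2 CPM in ethanol against 1439 ± 107 CPM with 4-OHT (SD, n = 2) and did not pass the test (limma adjusted p = 0.981).

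Naive ESCs resemble the epiblast before implantation. When they leave that state they pass through a formative state, in which OTX2 and the POU factor POU3F1 (also called OCT6) join the pluripotency factors and occupy a new set of enhancers, and then reach a primed state that is poised for germ layer formation. FOXD3, GRHL2 and SALL2 are further transcription factors of this interval, LIN28B is an RNA-binding protein that blocks the maturation of let-7 microRNAs, N-cadherin (Cdh2) replaces E-cadherin (Cdh1) when epithelial cells become mesenchymal or neural, and IGFBP3 binds insulin-like growth factors outside the cell.

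Of the 8 genes, 4 rose with 4-OHT (Otx2, Pou3f1, Sall2 and Lin28b), 0 fell and 4 did not pass the test (Foxd3, Grhl2, Cdh2 and Igfbp3). Otx2 rose 2.41-fold, Pou3f1 2.10-fold, Sall2 1.31-fold and Lin28b 1.27-fold. The test was limma on log2(CPM + 1), two-sided, for the difference of 4-OHT from ethanol, with p-values adjusted by Benjamini-Hochberg over all genes tested and a threshold of 0.05. Across all genes tested 9.46% passed, 5.24% as rises and 4.22% as falls, and among the 9687 genes with a mean of at least 10 CPM, as all 8 genes have, 5.32% rose and 5.46% fell. The 8 genes were chosen with earlier results of these data known, so their count beside these shares is a description and not a test. edgeR's quasi-likelihood test on the recovered reads called the same 4 genes, all as rises, against 15.8% of its genes (8.12% higher and 7.63% lower), and DESeq2 called the same 4 against 5.21% of its genes. At an unadjusted limma p under 0.05, 4 of the 8 were higher and 1, Cdh2, was lower. Of all 14376 genes tested, 3441 had such a p, in either direction, and each count at this cut given below stands beside that share. In limma the 4 calls were lost when either 4-OHT library was left out, a setting in which 0 genes of the whole table passed (2505 and 2514 had an unadjusted p under 0.05), whereas edgeR kept all 4 without any 1 of the 4 libraries. Because RNA was measured in bulk, more cells that express a gene and more RNA per cell cannot be told apart.

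**Figure D1:**
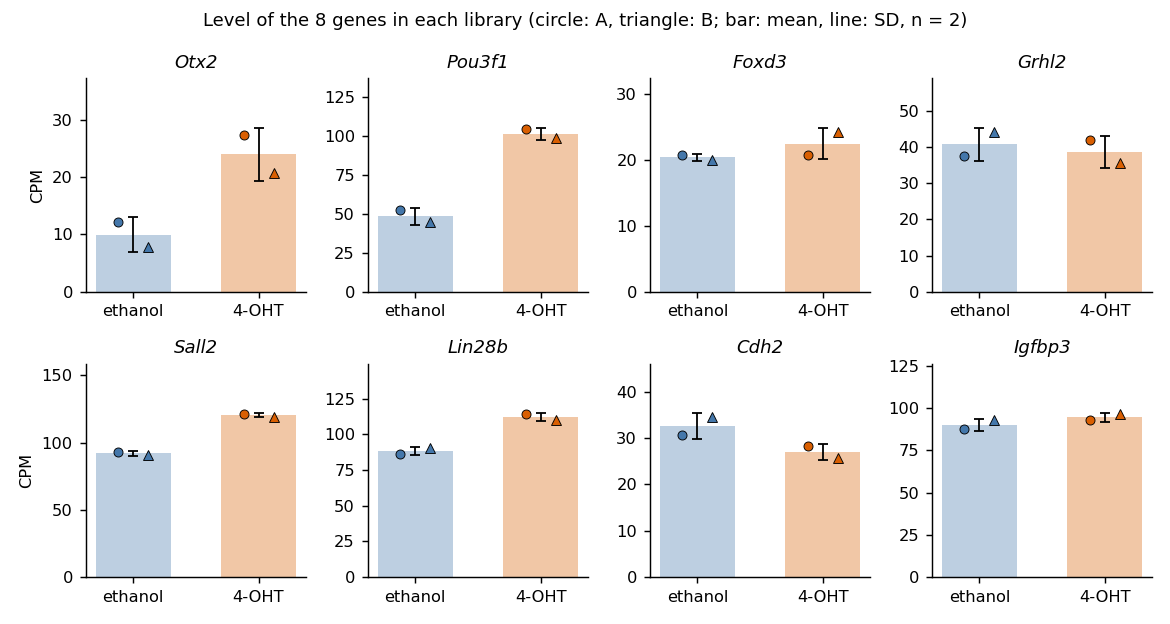
Level of each of the 8 genes in CPM (linear axes that start at 0, a separate scale for each gene), in ethanol (blue) and with 4-OHT (orange). Circles are library A, triangles library B, bars the mean and lines the SD (n = 2). Both 4-OHT points lie above both ethanol points for Otx2, Pou3f1, Sall2 and Lin28b, and below them for Cdh2. Groups did not overlap, in either direction, for 52.1% of all genes tested and 53.3% of those with at least 10 CPM.

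Otx2 encodes a homeodomain factor that is among the first to be induced when naive cells turn formative, and it redirects POU5F1 to formative enhancers. Its level was 12.1 and 7.80 CPM in the ethanol libraries (78 and 50 reads) and 27.3 and 20.7 CPM in the 4-OHT libraries (192 and 130 reads). Both 4-OHT libraries were above both ethanol libraries, while 52.1% of all genes had groups that did not overlap, in either direction. Library A was the higher of the pair in each group, but the letters were given within each group and link no libraries across groups. The mean rose from 9.94 ± 3.03 to 24.0 ± 4.69 CPM (SD, n = 2), a ratio of 2.41, with a log2 fold change of 1.21 (SE 0.202, 95% interval 0.76 to 1.66, limma adjusted p = 0.00457; edgeR adjusted p = 1.45e-09). Otx2 ranked 86th of the 14376 genes by log2 fold change. It had the widest spread of the 8 genes relative to its level, and the log2 fold change lay between 0.92 and 1.63 over all settings. The gene (ENSMUSG00000021848) lies on mm10 chromosome 14, 48657677 to 48673819, on the minus strand, with 4221 exon bases. Of these, 154 also belong to the antisense transcript Otx2os1 and 168 to the same-strand model Gm49154, neither of which is in the table, and whether counting used strand is not given in the sources used here.

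RefSeq annotates 4 starts for Otx2. A search of 300-base promoters (250 bases before each start and 50 after) looked on both strands for the OTX motif TAATCC. It was present in 7.06% of 32851 promoters. Only 5 of the 8 genes had promoters analysed here, 9 in all, of which 4 were those of Otx2. The motif was in 1 of these 9, that of the third Otx2 start. The match lies on the strand opposite to the one printed and begins 211 bases before that start. The window around it lies at chr14:48665303-48665332 (GRCm38.p6, the mm10 assembly, minus strand). It is shown because it holds the only match in the set, with the motif in capitals:
Otx2 window: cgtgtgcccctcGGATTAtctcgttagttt
This letter match is a description of the sequence and was not tested for binding. The 250 bases before the same start hold 14 CpG dinucleotides (capitals), and are shown because Otx2 had the highest fold change of the 8 genes:
Otx2 start 3, chr14:48665110-48665359, minus strand: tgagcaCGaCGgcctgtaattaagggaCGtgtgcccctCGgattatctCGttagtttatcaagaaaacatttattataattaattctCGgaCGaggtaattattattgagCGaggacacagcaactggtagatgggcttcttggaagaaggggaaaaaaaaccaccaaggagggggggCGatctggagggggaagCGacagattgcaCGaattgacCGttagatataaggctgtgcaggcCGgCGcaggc

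Pou3f1 encodes a POU-domain factor that marks the formative and primed epiblast and later the neural plate. It stood at 52.1 and 44.5 CPM in ethanol (336 and 285 reads) and at 104 and 98.4 CPM with 4-OHT (732 and 619 reads). The groups were far apart compared with the spread within each. The mean rose from 48.3 ± 5.39 to 101 ± 4.00 CPM (SD, n = 2), a ratio of 2.10 and a log2 fold change of 1.06 (SE 0.087, 95% interval 0.86 to 1.25). It had the smallest adjusted p of the 8 genes (limma 9.85e-05, edgeR 3.43e-17) and ranked 133rd by log2 fold change. Pou3f1 (ENSMUSG00000090125) is a gene of a single exon on chromosome 4, 124656807 to 124660655, plus strand, and 330 of its 3849 exon bases are shared with the antisense model Gm2164. Its relatives Pou3f2, Pou3f3 and Pou3f4, and the OTX2 relatives Otx1 and Crx, were not among the genes of the table.

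Foxd3 encodes a forkhead factor needed to maintain the epiblast, and it acts at enhancers during the passage from the naive to the primed state. It was at 20.8 and 20.0 CPM in ethanol and at 20.8 and 24.2 CPM with 4-OHT (134, 128, 146 and 152 reads). The groups overlapped, since 4-OHT library A was level with ethanol library A. The means were 20.4 ± 0.567 and 22.5 ± 2.41 CPM (SD, n = 2), and the log2 fold change of 0.13 had a 95% interval of -0.14 to 0.40, which leaves room for a change between 0.905-fold and 1.32-fold (limma adjusted p = 0.578). Foxd3 (ENSMUSG00000067261) is also a gene of a single exon, on chromosome 4, 99656299 to 99658622, plus strand. Of its relatives, only Foxd1 was in the table, at 0.234 ± 0.111 and 1.03 ± 0.555 CPM, and it did not pass.

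Grhl2 encodes a grainyhead factor that opens epithelial enhancers in the formative and primed epiblast. Its levels were 37.7 and 44.1 CPM in ethanol and 41.9 and 35.6 CPM with 4-OHT (243, 283, 295 and 224 reads). The highest value was in an ethanol library and the lowest in a 4-OHT library, and the groups overlapped. The means of 40.9 ± 4.58 and 38.8 ± 4.47 CPM differed by less than 1 SD, with a log2 fold change of -0.08 (95% interval -0.32 to 0.17, limma adjusted p = 0.746) whose sign turned when ethanol library B (0.04) or 4-OHT library B (0.04) was left out. Grhl2 (ENSMUSG00000022286) spans chromosome 15, 37233036 to 37363569, plus strand. Grhl1 (6.38 ± 1.13 and 6.70 ± 0.635 CPM) and Grhl3 (14.6 ± 2.05 and 9.42 ± 2.76 CPM) did not pass in limma either, while edgeR called Grhl3 lower (adjusted p = 0.00834).

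Sall2 encodes a zinc finger factor of the spalt family that becomes prominent in the primed state. It stood at 93.0 and 90.8 CPM in ethanol (600 and 582 reads) and at 122 and 119 CPM with 4-OHT (855 and 750 reads). Replicates lay close together in each group, and the gap between the groups was wider than the gap within either. The mean rose from 91.9 ± 1.56 to 120 ± 1.64 CPM (SD, n = 2), with a log2 fold change of 0.39 (SE 0.063, 95% interval 0.25 to 0.53, limma adjusted p = 0.00378; edgeR 4.31e-05). It ranked 1390th by log2 fold change, and 592 of the 754 genes that rose had larger values. The gene (ENSMUSG00000049532) lies on chromosome 14, 52311172 to 52328762, minus strand. In the same family Sall1 rose from 104 ± 7.0 to 176 ± 19.8 CPM (log2 fold change 0.75, limma adjusted p = 0.000457) and Sall3 from 35.9 ± 2.91 to 47.6 ± 5.56 CPM (limma adjusted p = 0.0442; not called in DESeq2, adjusted p = 0.172, or with a pseudocount of 0.1, limma adjusted p = 0.0641). Sall4, the family member central to ESC self-renewal, was at 409 ± 7.37 and 431 ± 22.1 CPM and did not pass (limma adjusted p = 0.480). Per kilobase of exon Sall4 was the most abundant of the 4, at 77.9 CPM per kb with 4-OHT against 33.5 for Sall1, 22.2 for Sall2 and 6.36 for Sall3.

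Lin28b was at 86.5 and 90.5 CPM in ethanol (558 and 580 reads) and at 114 and 110 CPM with 4-OHT (804 and 695 reads). Both 4-OHT libraries were above both ethanol libraries, while 52.1% of all genes had groups that did not overlap, in either direction. The mean rose from 88.5 ± 2.82 to 112 ± 2.69 CPM (SD, n = 2), with a log2 fold change of 0.34 (SE 0.065, 95% interval 0.20 to 0.49, limma adjusted p = 0.00874; edgeR 0.000404; DESeq2 0.0288). Its close relative Lin28a, which also blocks let-7 and is the main LIN28 gene of ESCs, was at 969 ± 30.1 and 1006 ± 60.1 CPM and did not pass (limma adjusted p = 0.652). Per kilobase of exon the Lin28a level was 243 CPM per kb in ethanol and 252 with 4-OHT, against 9.76 and 12.4 for Lin28b. Lin28b (ENSMUSG00000063804) lies on chromosome 10, 45376620 to 45486395, minus strand.

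Promoters of Sall2 and Lin28b are shown beside that of Foxd3, a gene that did not pass, because the first 2 rose together. Each line gives the 250 bases before a RefSeq start (GRCm38.p6), 5′ to 3′ on the strand of the gene, with CpG dinucleotides in capitals:
Sall2 start 2, chr14:52316324-52316573, minus strand: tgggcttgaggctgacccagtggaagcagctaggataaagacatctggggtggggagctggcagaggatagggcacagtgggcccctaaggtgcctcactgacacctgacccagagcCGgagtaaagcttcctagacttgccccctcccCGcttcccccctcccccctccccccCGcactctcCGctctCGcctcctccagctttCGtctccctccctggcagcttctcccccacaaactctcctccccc
Lin28b, chr10:45470202-45470451, minus strand: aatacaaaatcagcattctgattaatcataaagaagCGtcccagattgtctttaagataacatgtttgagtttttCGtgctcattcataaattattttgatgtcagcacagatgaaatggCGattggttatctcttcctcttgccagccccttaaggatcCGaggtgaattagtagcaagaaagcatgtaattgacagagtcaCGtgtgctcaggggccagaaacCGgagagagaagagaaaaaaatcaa
Foxd3, chr4:99656049-99656298, plus strand: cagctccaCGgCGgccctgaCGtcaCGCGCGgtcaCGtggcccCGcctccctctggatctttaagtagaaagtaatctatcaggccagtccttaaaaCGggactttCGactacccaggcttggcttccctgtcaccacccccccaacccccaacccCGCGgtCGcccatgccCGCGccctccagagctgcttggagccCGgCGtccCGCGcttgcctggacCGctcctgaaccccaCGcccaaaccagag
Over the full 300 bases CpG counts were 10 for this Sall2 start (1 for the other), 8 for Lin28b, 6, 8, 16 and 11 for the Otx2 starts, 25 for Foxd3 and 37 for Igfbp3. Over all promoters the quartiles were 3, 7 and 20. The promoters of Otx2, Sall2 and Lin28b, which rose, had at most 16 CpG. Those of Foxd3 and Igfbp3, which did not pass, had more. This is a description of 5 genes and was not tested. Pou3f1, which also rose, and Grhl2 and Cdh2, which did not pass, had no promoter analysed here. The POU octamer ATGCAAAT was in 1.74% of all promoters, the forkhead motif TGTTTAC in 3.65% and the GRHL motif AACCNGGTT in 0.271%. On either strand, 0 of the 9 promoters of the 5 analysed genes held any of these motifs.

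The link between LIN28B and let-7 is mutual in that the Lin28b transcript carries let-7 sites. The mature let-7 sequence is shown with its seed, bases 2 to 8, in capitals; all 9 names with a 5p arm in the let-7 and miR-98 family share it:
mmu-let-7a-5p: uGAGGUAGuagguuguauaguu
The 7-base match to this seed is CTACCTC. It occurred in the longest annotated 3′ UTR of 1879 of 20956 genes (8.97%). Lin28b held 4 matches in a 3′ UTR of 4445 bases, and the other 7 genes held 0. The 4 target sites, on the minus strand of chromosome 10 in mm10, are shown with the match in capitals:
chr10:45381022-45381044: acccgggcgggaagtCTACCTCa
chr10:45378648-45378670: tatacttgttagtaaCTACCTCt
chr10:45378476-45378498: gtttacagcacatggCTACCTCc
chr10:45377060-45377082: aaatgatggcaccgaCTACCTCt
The let-7 microRNAs themselves were not measured, since the libraries hold polyA RNA. In a list of 19 names for LIN28 partners, microRNA processing enzymes and let-7 targets, 17 genes were measured, of which 3 rose, 0 fell and 14 did not pass (median log2 fold change 0.07, against -0.0016 over all genes tested). At an unadjusted p under 0.05, 5 were higher and 1 lower, and edgeR called 3 higher and 0 lower. The 3 that rose are known let-7 targets. Igf2bp1, which encodes an mRNA-binding protein, rose from 978 ± 5.34 to 1235 ± 58.2 CPM, its relative Igf2bp3 from 175 ± 7.06 to 222 ± 9.46 CPM, and Hmga2, which encodes a chromatin architectural protein, from 27.9 ± 3.10 to 40.5 ± 1.36 CPM (limma adjusted p = 0.00418, 0.00610 and 0.0114). Their 3′ UTRs held 4, 1 and 4 matches. The 10 list genes with a match had a median log2 fold change of 0.11 and included all 3 rises. The 7 without a match had a median of 0.03 and 0 rises. These 7 were all LIN28 partners or microRNA processing enzymes, so the split follows the kinds of gene put in the list. It was not tested. Trim71, with 4 matches, did not pass (limma adjusted p = 0.983).

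Cdh2 was at 30.7 and 34.6 CPM in ethanol (198 and 222 reads) and at 28.3 and 25.7 CPM with 4-OHT (199 and 162 reads). Both 4-OHT libraries were below both ethanol libraries, but 52.1% of all genes, and 53.3% of those with at least 10 CPM, had groups that did not overlap. The means were 32.7 ± 2.79 and 27.0 ± 1.79 CPM (SD, n = 2), and the log2 fold change of -0.26 (95% interval -0.51 to -0.02) had an unadjusted p of 0.0355 and did not pass after adjustment (limma adjusted p = 0.172; edgeR 0.110). Cdh2 (ENSMUSG00000024304) spans chromosome 18, 16588877 to 16809246, minus strand. Its epithelial counterpart Cdh1 fell from 455 ± 12 to 389 ± 28.0 CPM (log2 fold change -0.23, limma adjusted p = 0.0466), a call that was lost with a pseudocount of 0.1 (limma adjusted p = 0.0687). Both cadherins thus had negative log2 fold changes.

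Among 16 measured genes of cadherins, catenins and transcription factors of epithelial to mesenchymal transition, 1 rose, 2 fell and 13 did not pass in limma (median log2 fold change -0.02), and edgeR called 2 higher and 4 lower. Cdh6, a type II cadherin of neural crest and kidney, rose from 2.88 ± 1.88 to 9.98 ± 0.045 CPM, with ethanol libraries of 1.55 and 4.21 CPM. Jup, which encodes plakoglobin, a catenin of desmosomes, fell from 194 ± 21.3 to 133 ± 2.10 CPM (limma adjusted p = 0.00175).

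Grainyhead factors are known to drive a set of epithelial genes. In a list of 19 measured genes of this epithelial programme, which also held Grhl1 and Grhl3, 0 rose, 5 fell and 14 did not pass in limma (median log2 fold change -0.18). At an unadjusted limma p under 0.05, 1 was higher and 10 were lower, against 3441 of all 14376 genes in either direction. edgeR called 0 higher and 8 lower, and Grhl3 was among the lower genes in both counts. The tight junction gene Cldn4 fell from 62.0 ± 5.43 to 36.3 ± 2.86 CPM (log2 fold change -0.76, limma adjusted p = 0.000934). Its relative Cldn6 fell from 78.4 ± 2.94 to 58.6 ± 1.13 CPM and the keratin gene Krt8 from 62.5 ± 4.33 to 44.7 ± 2.15 CPM. The membrane protease gene St14 fell from 135 ± 6.31 to 108 ± 0.035 CPM. Grhl2 itself did not pass, as given above.

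Igfbp3 was at 87.7 and 92.8 CPM in ethanol and at 92.8 and 96.5 CPM with 4-OHT (566, 595, 653 and 607 reads). The upper ethanol library and the lower 4-OHT library were at the same level to 3 digits, so the groups touched. The means were 90.3 ± 3.60 and 94.6 ± 2.59 CPM (SD, n = 2), with a log2 fold change of 0.07 (95% interval -0.08 to 0.22, limma adjusted p = 0.602), an interval that allows at most a 1.16-fold increase. Igfbp3 (ENSMUSG00000020427) lies on chromosome 11, 7206086 to 7213923, minus strand. Of 13 other measured genes of the IGF pathway, 2 rose, 0 fell and 11 did not pass (median log2 fold change 0.18), with 4 higher and 1 lower at an unadjusted p under 0.05 and 3 higher and 0 lower in edgeR. The ligand gene Igf2 rose from 35.8 ± 0.603 to 48.9 ± 1.34 CPM and the binding protein gene Igfbp5 from 2.26 ± 0.340 to 5.93 ± 0.150 CPM (limma adjusted p = 0.00922 and 0.00621), and neither passed in DESeq2 (adjusted p = 0.0637 and 0.0856). Igf1 was not in the table, and the receptor gene Igf1r, at 48.4 ± 3.19 and 52.2 ± 2.14 CPM, did not pass.

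**Figure D2:**
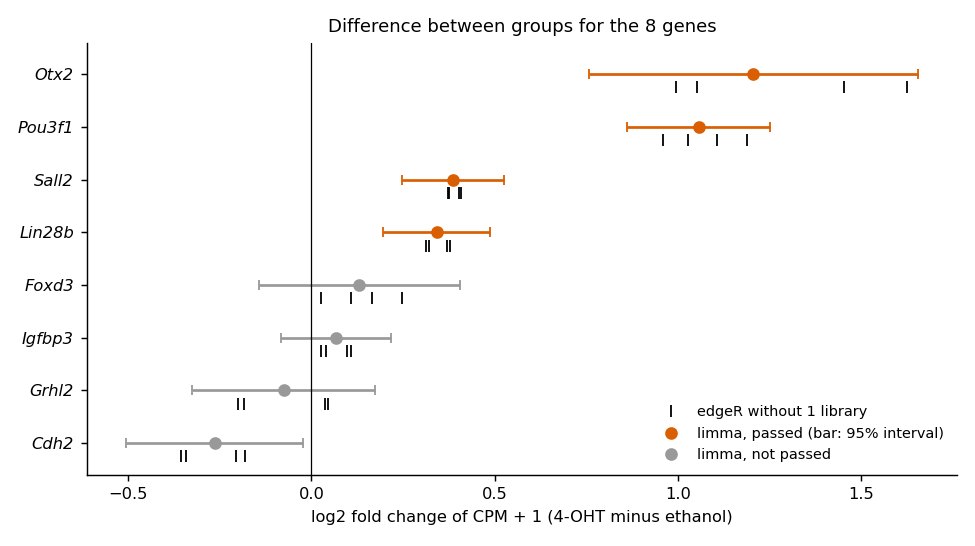
Difference of 4-OHT from ethanol in log2(CPM + 1) for each of the 8 genes. Points are limma estimates from all 4 libraries with 95% intervals (orange, passed; grey, not passed), and black ticks are edgeR estimates with 1 library left out. For Otx2 the ticks run from 1.00 to 1.63, and for Grhl2 they lie on both sides of 0.

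In levels per kilobase of exon, which allow genes to be compared, Igfbp3 was the most abundant of the 8 in ethanol (28.8 ± 1.15 CPM per kb), followed by Sall2 (16.9 ± 0.287), Pou3f1 (12.5 ± 1.40), Lin28b (9.76 ± 0.311), Foxd3 (8.76 ± 0.244), Grhl2 (4.75 ± 0.532), Cdh2 (4.05 ± 0.346) and Otx2 (2.36 ± 0.719). Only Grhl2 and Cdh2 were neighbours in this order whose SD ranges overlapped. With 4-OHT, Pou3f1 (26.3 ± 1.04 CPM per kb) passed Sall2 (22.2 ± 0.302) and came second to Igfbp3 (30.2 ± 0.828). Otx2 (5.68 ± 1.11 CPM per kb) moved from last place to a level whose SD range overlapped that of Grhl2 (4.50 ± 0.519). Cdh2 was then the lowest at 3.35 ± 0.222 CPM per kb. Otx2 thus had the highest fold change of the 8 genes and remained a low transcript among them.

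**Figure D3:**
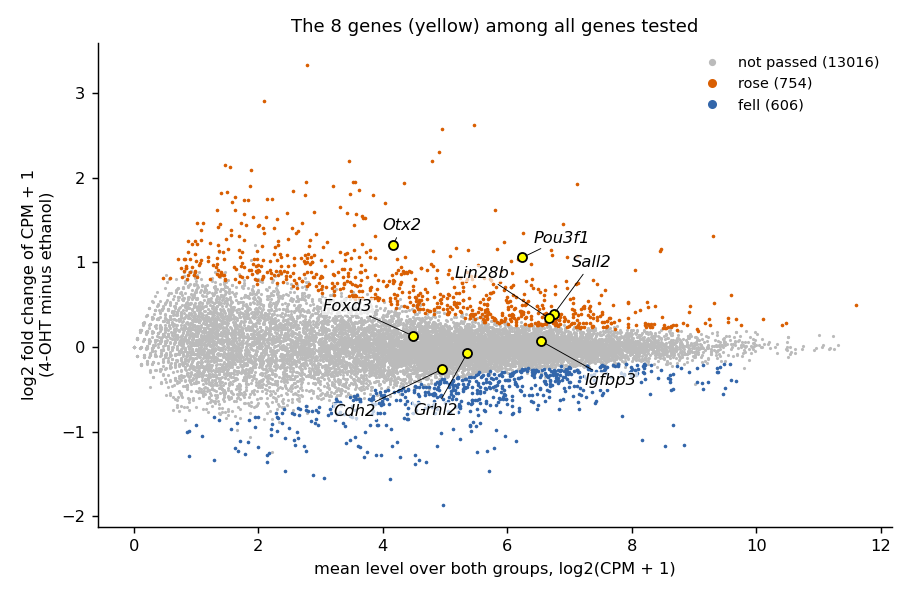
Difference of 4-OHT from ethanol in log2(CPM + 1) against the mean level over both groups on the log2(CPM + 1) scale for the 14376 genes tested (grey, not passed; orange, 754 that rose; blue, 606 that fell), with the 8 genes in yellow. By log2 fold change Otx2 ranks 86th and Pou3f1 133rd. Of the 754 genes that rose, 592 have larger values than Sall2 and 630 have larger values than Lin28b.

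Other genes of the same cell states gave a frame for these values. The lists hold none of the 8 genes and were read by counts and medians only; some genes stand in more than 1 list. Of 22 measured formative and primed epiblast genes, 8 rose, 2 fell and 12 did not pass in limma (median log2 fold change 0.20). The highest fold changes were those of growth factor genes: Fgf15 rose from 9.09 ± 0.728 to 48.8 ± 0.456 CPM, and the primed marker Fgf5 rose from 2.95 ± 0.866 to 16.9 ± 2.38 CPM. Car14, a carbonic anhydrase gene, rose from 5.44 ± 0.465 to 21.3 ± 0.623 CPM and Dnmt3a, which encodes a de novo DNA methyltransferase, from 219 ± 12.2 to 487 ± 2.49 CPM. The 2 that fell were T, which encodes the primitive streak factor Brachyury, from 45.7 ± 1.75 to 27.4 ± 0.359 CPM, and the kinase gene Pim2, from 289 ± 4.95 to 250 ± 0.705 CPM (not called in DESeq2, adjusted p = 0.0823).

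Naive pluripotency genes moved both ways. Of 25, 7 rose, 5 fell and 13 did not pass in limma (median log2 fold change 0.16), and edgeR called 8 higher and 7 lower. Dppa3, a maternal chromatin factor gene, rose from 4.98 ± 0.023 to 16.8 ± 2.71 CPM and Nanog from 314 ± 6.60 to 402 ± 0.508 CPM, so genes of the naive list and of the formative list rose in the same libraries. Nr5a2, Tcl1 and Fgf4 also rose, at log2 fold changes of 0.84, 0.83 and 0.71, though DESeq2 did not call Tcl1 (adjusted p = 0.0540). The 5 that fell were the naive factor genes Tfcp2l1 (173 ± 1.56 to 121 ± 4.74 CPM), Klf5 (85.5 ± 3.79 to 60.1 ± 11.1 CPM), Esrrb (203 ± 4.77 to 169 ± 7.28 CPM) and Tbx3 (56.5 ± 3.37 to 44.6 ± 1.99 CPM), and the F-box gene Fbxo15 (82.1 ± 2.92 to 67.6 ± 0.138 CPM). Their log2 fold changes were -0.51, -0.51, -0.27, -0.33 and -0.28, and DESeq2 did not call Tbx3 or Fbxo15 (adjusted p = 0.221 and 0.230). Without ethanol library B, Esrrb was not called in limma or edgeR (adjusted p = 0.112 and 0.0730), and without ethanol library A neither Tbx3 (0.181 and 0.151) nor Fbxo15 (0.177 and 0.162) was called. Tbx3 was also not called in edgeR without 4-OHT library B (adjusted p = 0.0597), nor Fbxo15 in limma without ethanol library B (0.0644). Of 9 general pluripotency genes, Dppa2 (40.5 to 53.5 CPM) and Zfp281 (178 to 210 CPM) rose, Sox2 fell (338 ± 16.1 to 291 ± 2.09 CPM, limma adjusted p = 0.0405) and 6 did not pass; DESeq2 called none of these 3, with adjusted p from 0.0575 to 0.102. Sox2 was also not called with a pseudocount of 0.1 (limma adjusted p = 0.0545). Of 18 genes required for exit from the naive state, 1 rose, 1 fell and 16 did not pass (median log2 fold change 0.01), while edgeR called 3 higher and 1 lower. The Notch pathway factor gene Rbpj rose from 73.6 ± 7.48 to 103 ± 1.43 CPM and the ERK1 gene Mapk3 fell from 125 ± 6.25 to 95.3 ± 4.55 CPM.

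**Figure D4:**
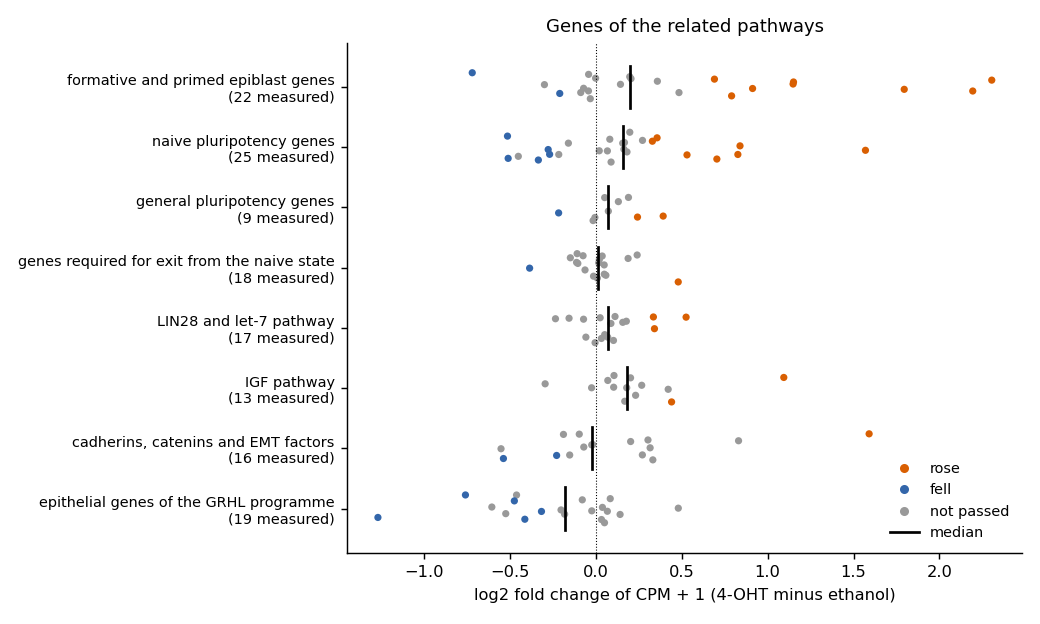
Difference of 4-OHT from ethanol in log2(CPM + 1) of each measured gene in 8 lists of related genes, with 1 point per gene (orange, rose; blue, fell; grey, not passed; vertical offset only to separate points) and the median of each list as a black line. The formative and primed list reaches 2.30 with Fgf15, and the list of epithelial genes of the GRHL programme has its median at -0.18.

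Likeness of pattern was measured over the 4 libraries as the Euclidean distance between log2(CPM + 1) values centred on each gene's mean, against the 141 genes of these lists. Zic2, a zinc finger factor gene of the epiblast and neural plate, was nearest to Otx2 (0.388) and second nearest to Pou3f1 (0.150). It rose from 63.5 ± 2.46 to 142 ± 11.4 CPM. Dnmt3a was nearest to Pou3f1 (0.132) and second nearest to Otx2 (0.423). The nearest genes to Sall2 were Dppa2 (0.018) and Nanog (0.064), and those to Lin28b were Igf2bp3 (0.030) and Nanog (0.039). With 4 libraries in 2 groups, these distances reflect mostly the size of the change.

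Of 19 listed relatives of the 8 genes, 11 were measured, of which Sall1, Sall3 and Igfbp5 rose, Cdh1 fell and 7 did not pass (median log2 fold change 0.07). edgeR called 4 higher and 2 lower.

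Several of the 8 genes are also expressed by other cell types, so marker genes were summed. Neural markers (10 of 14 measured) held 5 rises and 1 fall in limma (5 higher and 2 lower in edgeR), and their summed level was 393 to 400 CPM in the ethanol libraries and 419 to 447 CPM in the 4-OHT libraries. Sox1 rose from 89.4 ± 2.67 to 154 ± 8.28 CPM and Zic1 from 1.01 ± 0.334 to 5.74 ± 0.926 CPM. The fall was that of Nes, the intermediate filament gene nestin, from 219 ± 9.91 to 147 ± 6.31 CPM (limma adjusted p = 0.000441). Nes made up 55.3% of the ethanol sum, and without it the sum was 173 to 181 CPM in ethanol and 276 to 295 CPM with 4-OHT. Neural crest markers (8 of 12 measured) held 4 rises and 0 falls in limma (0 lower at an unadjusted p under 0.05 or in edgeR) and summed to 33.2 to 36.2 CPM in ethanol and 60.8 to 64.8 CPM with 4-OHT, with Msx1 rising from 3.73 ± 0.237 to 17.3 ± 1.15 CPM and Tfap2a from 3.19 ± 0.535 to 9.03 ± 0.713 CPM. The neural markers Dcx, Neurog2, Hes5 and Six3 and the crest markers Tfap2b, Pax7, Sox9 and Ednrb were not among the genes of the table. Both marker sums moved in the same direction as Otx2, Pou3f1, Sall2 and Lin28b, and their part in those rises was not tested.

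Fibroblast markers, which feeder cells express, held 2 rises and 2 falls among 17 of 23 measured and summed to 955 to 982 CPM in ethanol and 809 to 844 CPM with 4-OHT. Tagln, which encodes the actin-binding protein transgelin, made up 65.8% of the ethanol sum and fell from 637 ± 17.0 to 475 ± 14.5 CPM (limma adjusted p = 0.000987). Without Tagln the direction of the sum turned, with 330 to 334 CPM in ethanol and 344 to 359 CPM with 4-OHT. The other fall was Col5a2, from 32.1 ± 1.28 to 21.5 ± 2.86 CPM (limma adjusted p = 0.0153; not called in DESeq2, adjusted p = 0.0600). Col1a2 rose from 20.8 ± 1.63 to 45.0 ± 3.56 CPM, as did Thy1 from 1.40 ± 0.226 to 3.25 ± 0.575 CPM (not called with a pseudocount of 0.1 or in DESeq2), while the fibroblast genes Postn, Lum, Dcn, Twist2, Prrx1 and Fap were not among the genes of the table. Cdh2 and Igfbp3 are expressed by fibroblasts as well, and the part of feeder RNA in their levels was not tested. Primitive streak and mesoderm markers (10 of 14) held 2 rises, with Kdr from 1.79 ± 0.542 to 7.25 ± 0.594 CPM, and 3 falls, with Cdx1 from 21.1 ± 2.32 to 8.20 ± 1.48 CPM, and summed to 143 to 155 CPM and 107 to 109 CPM. Trophoblast markers (10 of 12) held 1 rise, Cdx2 from 10.1 ± 0.394 to 18.1 ± 0.265 CPM, and 3 falls, with Krt7 from 6.53 ± 0.630 to 3.36 ± 0.478 CPM (not called with a pseudocount of 0.1 or in DESeq2), and summed to 188 to 203 CPM and 168 to 170 CPM. Among 10 of 14 endoderm markers limma called 0 (3 were higher and 0 lower at an unadjusted p under 0.05), edgeR called 2 higher and DESeq2 0, with sums of 40.1 to 41.2 CPM and 47.2 to 49.6 CPM.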

How the data were processed

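PolyA RNA of 4 samples was analysed, 2 per group. The submitters' processing notes name HISAT2, Trimmomatic, FastQC and edgeR and the mm10 build, without versions. Which program counted reads, on which annotation and with which strand setting was not given in the sources used here. Per the labels' protocols, libraries were made with an unstranded or a stranded TruSeq kit, and which library had which is not given, so kit and group may overlap. The authors' deposited table holds a mean CPM per group, a log2 fold change and an adjusted p-value for each gene. The authors' deposited log2 and p-value columns were used for no gene: sorted by the Entrez number as text, the p never fell in 14381 steps, and the fold change had a Spearman rho of 0.016 across 14312 genes with the CPM ratio of its own row.

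Each mean CPM that the authors deposited adds 2 whole numbers of reads, weighted by what 1 read is worth in each library. With both weights found from low values, 100% of values came out whole to the printed digits, and 1 pair alone was possible for 99.8% (ethanol) and 99.95% (4-OHT) of genes. Where several pairs were possible, that within 2-fold was taken, and 6 genes at 2859 CPM or more stayed unsettled and were left out. Symbols came from the table (13626) or from RefSeq by Entrez number (746), and 10 genes had none. Reads carried no molecular identifiers, so floors cover counting error alone.

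The design written for the tests allowed for counts, CPM per library or group means, and the branch for CPM per library was used: limma-trend 3.58.1 (R 4.3.3) on log2(CPM + 1), no filter. Alternatives were a pseudocount of 0.1, a mean of at least 1 CPM, DESeq2 size factors, TMM, edgeR 4.0.16, DESeq2 1.42.0 and leaving out each library, the last with edgeR added after seeing the data, as were marker sums without the highest marker. Of the fits, limma and edgeR were also run on simulated libraries with the same spread set for every gene. That run does not measure their error on these data. Columns of per-sample values left unused numbered 0. Gene coordinates are from Gencode M21, 1-based.

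The 8 genes, the lists and the tests were chosen with earlier results of these data known. Named genes were the 8, Arid1a, Pou5f1, Sox2, Nanog, Cdh1 and Lin28a, the called relatives of the 8, up to 4 called genes of each other list with the largest change, groups that did not overlap and a mean log2 CPM of at least 1, up to 2 of each marker list, and the 2 list genes nearest in pattern to each of the 8 that was called. Foxd1, Grhl1, Grhl3, Sall4, Trim71, St14, T, Pim2, Igf1r, Nes, Tagln, Col5a2, the naive genes that fell and the genes under other observations were named after their values were seen. Some genes that counts and medians include are not reported here by name. Promoters of Pou3f1, Grhl2 and Cdh2 were not analysed here.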

Additional observations from a re-analysis of the deposited data

How the results depend on the processing

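Each of the 8 genes kept its direction and its side of the threshold with a pseudocount of 0.1, a minimum mean of 1 CPM, DESeq2 size factors, TMM, edgeR and DESeq2, and 4 of the 8 were called in each of these settings. Over all genes limma called 1360, edgeR 2042 and DESeq2 704; why the counts differ was not tested. With 1 library left out, limma called between 0 and 1031 genes, between 0 and 4 of the 8 genes, and between 0 and 37 of the 141 pathway genes (42 with all libraries). The values of 0 came without 4-OHT library A (lowest adjusted p = 0.129) and without 4-OHT library B (0.121), where the lone 4-OHT library is assumed to vary like the ethanol libraries. There the adjusted p was 0.193 to 0.254 for Otx2, 0.134 to 0.136 for Pou3f1, 0.154 to 0.160 for Sall2 and 0.171 to 0.187 for Lin28b, at log2 fold changes of 1.01 to 1.40, 1.02 to 1.10, 0.37 to 0.40 and 0.32 to 0.37. edgeR with 1 library left out, a setting chosen after seeing the data, called 1303 to 1782 genes, 4 of the 8 genes in each case and 39 to 50 pathway genes. The largest adjusted p there was 3.01e-06 for Otx2, 1.46e-14 for Pou3f1, 0.00513 for Sall2 and 0.0291 for Lin28b.

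Signs turned with 1 library left out in 4 values for the 8 genes, all for Grhl2, which turned to 0.04 in limma without ethanol library B or 4-OHT library B and to 0.046 and 0.036 in edgeR, over a leave-one-out range of -0.200 to 0.046. Over both tools, other named genes whose sign turned ranged from -0.10 to 0.26 (Grhl1), -0.0086 to 0.11 (Lin28a), -0.081 to 0.072 (Pou5f1) and -0.022 to 0.015 (Trim71), and none of these passed. For the other named genes a call was lost in 125 values of limma and 19 of edgeR with 1 library left out, and in 18 under the remaining settings. All scalings kept the median log2 fold change of all genes within 0.01 of 0.

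No paired analysis was possible because the deposited columns are group means, so the recovered libraries carry no replicate numbers. A gene at 0 reads could still lie at up to 0.426 to 0.477 CPM (3 reads in a library), and none of the 8 genes was near that floor. The 95% intervals of Foxd3, Grhl2 and Igfbp3 together ran from -0.32 to 0.40 on the log2 scale.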

Other observations

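Within families of epiblast genes some members passed and others did not, named here after their values were seen. Of the ZIC factor genes, Zic2 rose from 63.5 ± 2.46 to 142 ± 11.4 CPM (log2 fold change 1.15, limma adjusted p = 2.03e-05), while Zic5 was at 11.0 ± 0.060 and 14.3 ± 0.390 CPM (SD, n = 2) and did not pass (limma adjusted p = 0.156). Of the de novo DNA methyltransferase genes, Dnmt3a rose from 219 ± 12.2 to 487 ± 2.49 CPM and Dnmt3b was at 542 ± 19.0 and 517 ± 18.2 CPM and did not pass (limma adjusted p = 0.499). Differences between members of a family were not tested.

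Ligand genes of the epiblast were among the genes that rose: besides Fgf5 and Fgf15, Fgf8 went from 22 ± 1.09 to 42.5 ± 5.37 CPM, Nodal from 121 ± 4.51 to 210 ± 7.01 CPM and Wnt8a from 93.6 ± 0.207 to 152 ± 6.04 CPM (limma adjusted p = 0.000873, 5.61e-05 and 0.000169). Wnt3, a ligand gene that initiates the primitive streak, fell from 57.1 ± 6.56 to 39.2 ± 1.71 CPM (limma adjusted p = 0.00723). The ETS factor genes Etv4 and Etv5, which report FGF signalling, were at 63.4 ± 0.069 and 70.3 ± 4.11 CPM and at 271 ± 9.48 and 311 ± 12.9 CPM, and neither passed in limma (adjusted p = 0.279 and 0.0611), though edgeR called Etv5 higher (adjusted p = 0.0163).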
